A study of Mus musculus with 2 samples.

Results

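The liver enzymes that break down amino acids and handle one-carbon units were examined as a set of 51 genes in mice given titanium dioxide nanoparticles. The members were named one by one by gene symbol and not by a rule on values, though earlier results of these data were known. All 51 matched a gene in the tables, which hold 37146 genes in all. They were ordered by reaction, with 11 genes for the aromatic amino acids, 4 for histidine, 10 for the branched-chain amino acids, 6 for methionine and the sulfur amino acids, 12 for serine, glycine and the methyl groups of sarcosine, 5 transaminases and 3 for proline and lysine.

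Liver RNA was sequenced in 2 libraries, 1 for each group. The NP library came from CD-1 mice, an outbred strain, that received 50 mg per kg of body weight per day of titanium dioxide nanoparticles by mouth, from a suspension stirred with ultrasound for 30 min. The Control library came from CD-1 mice that received the same volume of phosphate-buffered saline. The labels leave out the age and sex of the mice, how long they were dosed, when in the day the livers were collected and how many mice a library pools. Values are FPKM, fragments scaled by transcript length and by the number of mapped fragments, so levels can be set side by side between genes as well as between libraries. Ranges given after a value are 95% intervals, as deposited for a single row and combined here from the deposited ones for a gene with several rows. They describe the estimate within a library and carry no information on variation among animals. As each group is a single library, no difference has a replicate check and no p-value was computed, and every comparison describes these libraries.

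The liver is the main site at which most amino acids are degraded, and the enzymes sit largely in hepatocytes. Tyrosine and tryptophan are opened by dioxygenases, histidine is turned into glutamate with its ring carbon passed to folate, and the nitrogen of many amino acids is first moved to a keto acid by transaminases that carry pyridoxal phosphate. Methionine is activated to S-adenosylmethionine, the general methyl donor, and the folate-bound one-carbon units come mainly from serine and glycine.

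Of the 51 members, 48 had a mean of at least 1 FPKM and were compared. On the scale of log2((NP + 1)/(Control + 1)), 1 of these 48 was at least 1.5-fold higher in NP and 0 were at least 1.5-fold lower. Among all 10544 genes that passed the same filter, 3.59% were that much higher and 5.33% that much lower. A 2-fold difference was reached by 0 members in either direction, and by 1.14% of all genes upwards and 1.89% downwards. The ratio was above 1 for 28 of the 48 members and for 45.7% of all genes. Among the members that number was 24 when each row of the tables was weighted by its length, and 25 when rows listed at 0 in 1 library were left out. The NP interval lay wholly above the Control interval for 13 of the 48 members (27.1%) and wholly below it for 6 (12.5%), against 7.72% and 9.58% of all genes. Intervals of abundant genes are narrow, and 44 of the members had a mean of at least 20 FPKM. All 13 and all 6 were among those 44, and of all 2835 genes at that level 13.9% had intervals apart upwards and 13.1% downwards, while 3.14% were 1.5-fold higher and 2.82% 1.5-fold lower. The median log2 ratio of the members was 0.03, beside -0.03 for all genes past the filter.

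The libraries were deep enough to place most members closely. Members above 50 FPKM had intervals reaching a median of 5.56% to either side in NP and 5.91% in Control, and members at 5 to 50 FPKM reached 9.30% in NP and 9.17% in Control. Per FPKM, the deposited coverage stood at 2.93 in NP and 2.29 in Control, a relative depth of 1.28. The tissue label was met by its markers, with albumin (Alb) at 30741 FPKM in NP and 21660 FPKM in Control, while 3 of 4 kidney tubule genes were listed at 0 in both. All 8 hepatocyte markers were measured, with a median log2 ratio of 0.21, 7 of them above 1 and 1, Cyp2e1, below. Genes of periportal hepatocytes, among them the members Hal and Sds, had a median of -0.03 over 9 genes, and genes of pericentral hepatocytes -0.10 over 9 of 10. The periportal gene Ass1 was lower by more than 1.5-fold, at 41.0 FPKM in NP and 67.5 FPKM in Control. The marker lists of other cells had medians of -0.37 for 8 of 8 sinusoidal endothelial genes and -0.55 for 4 of 7 Kupffer cell genes. They were -0.31 for 7 of 8 stellate cell genes and -0.26 for 5 of 5 erythroid genes past the filter. Only 2 of 5 cholangiocyte genes and 2 of 7 T, B and NK cell genes passed it, with 1 above 1 and 1 below in each list. The median of all genes was -0.03. Summed over each list, the endothelial genes were at 70.9 FPKM in NP and 94.1 FPKM in Control, the Kupffer cell genes at 17.4 FPKM in NP and 33.8 FPKM in Control, and the stellate cell genes at 132 FPKM in NP and 163 FPKM in Control. Of the Kupffer cell sum, Clec4f alone gave 7.63 FPKM in NP and 18.4 FPKM in Control. The part of these markers in the members' ratios was not tested, and in whole liver fewer cells of a type and less RNA per cell cannot be told apart.

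**Figure D1:**
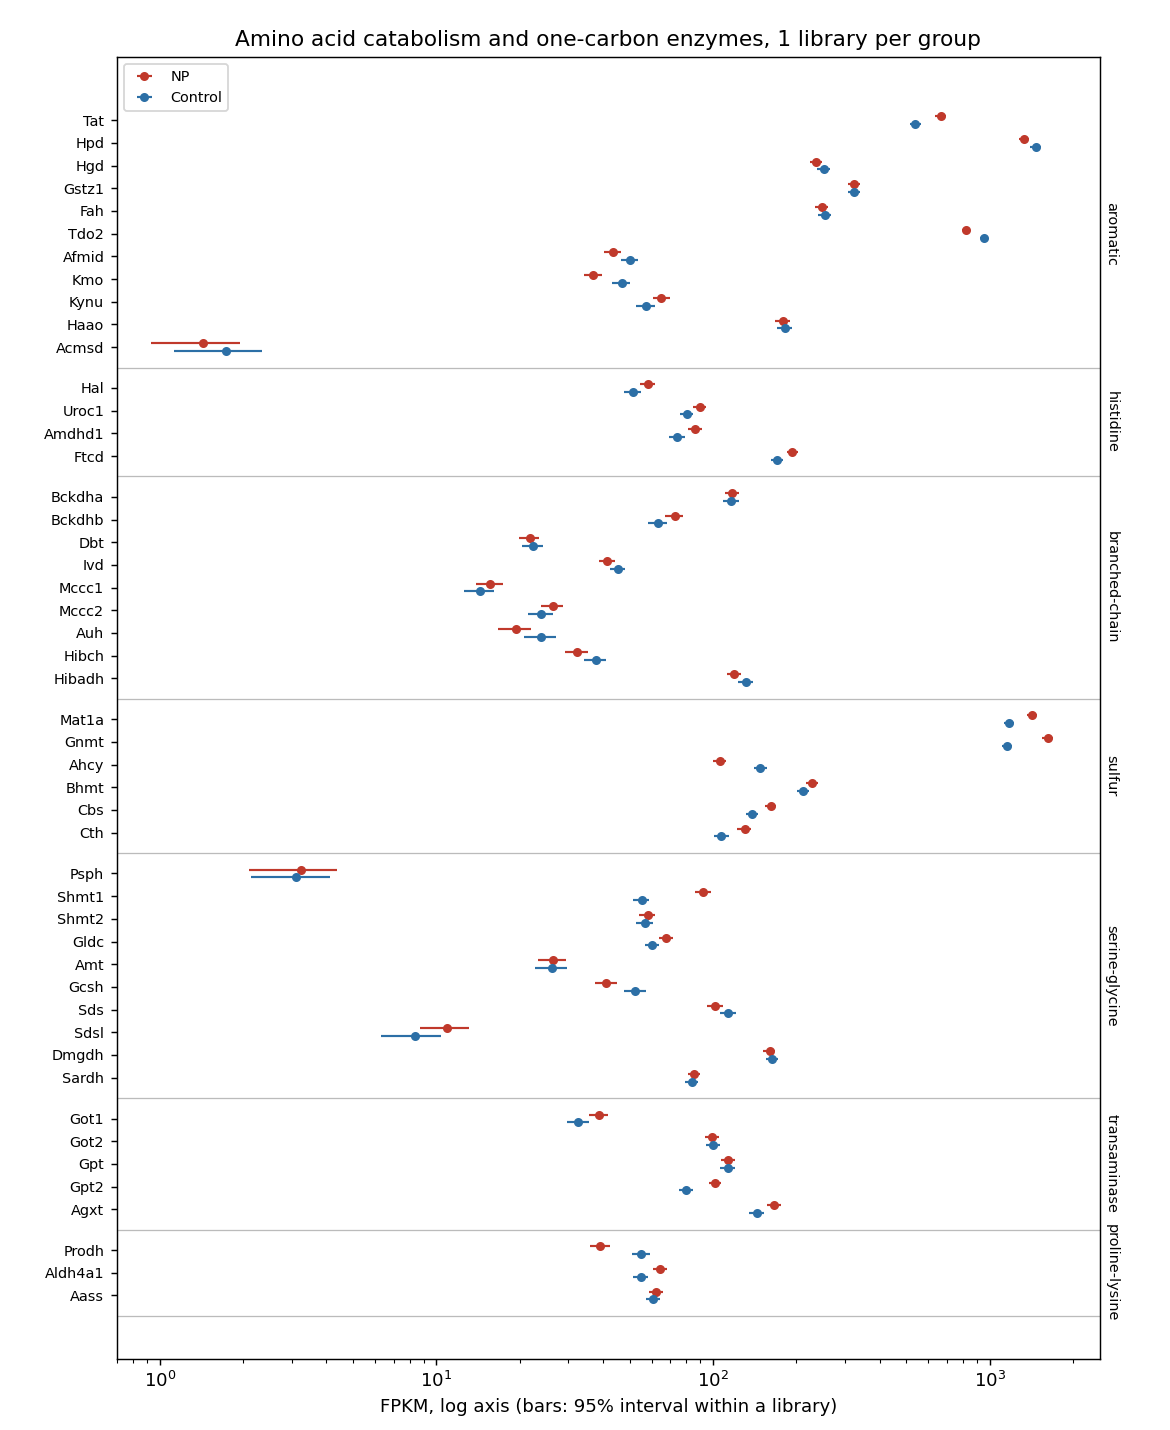
FPKM of the 48 members past the filter on a log axis, NP in red above Control in blue, with the 95% interval within each library as a bar, grouped by reaction. Most pairs nearly coincide, from Acmsd at 1.43 and 1.73 FPKM to Gnmt at 1620 and 1155 FPKM in NP and Control.

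The order of the levels was nearly the same in both libraries. The 5 most abundant members in NP were Gnmt, Mat1a, Hpd, Tdo2 and Tat, and in Control they were Hpd, Mat1a, Gnmt, Tdo2 and Tat. In Control the values of Mat1a and Gnmt, 1174 and 1155 FPKM, had overlapping intervals, so their order is not resolved there. In NP the same holds for Mat1a and Hpd, at 1425 and 1330 FPKM. At the low end, Bcat2 was listed at 0 in both libraries, Phgdh at 0 in NP and 0.0194 FPKM in Control, and Psat1 at 0.640 FPKM (0.324 to 0.957) in NP and 0.206 FPKM (0.00971 to 0.402) in Control. Bcat2 encodes the mitochondrial branched-chain transaminase, which is known to act mainly outside the liver. Phgdh and Psat1 encode the first steps of serine synthesis from glycolysis, and their values lay below the filter in both libraries. The Bcat2 span overlaps the transcript 0610005C13Rik, which was at 156.5 FPKM in NP and 177.7 FPKM in Control. Reads from the shared stretch could have been given to either gene, and this was not tested.

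The single member past 1.5-fold was Shmt1, the cytosolic serine hydroxymethyltransferase, which moves a one-carbon unit from serine to tetrahydrofolate. Shmt1 lies on chromosome 11 from 60601606 to 60625220 in the mm9 build of the files. Its summed value was 91.8 FPKM (85.7 to 97.9) in NP and 55.2 FPKM (51.5 to 58.8) in Control, a ratio of 1.66. The gene is made up of 12 rows in each table, of which 3 were above 0 in a library, a row for the whole gene and 2 transcripts. The protein-coding transcript of 2858 nt was at 52.7 FPKM (49.0 to 56.4) in NP and 52.7 FPKM (49.1 to 56.3) in Control. The whole excess stood in a row of 1295 nt, at 37.1 FPKM (32.2 to 41.9) in NP and listed at 0 in Control with an upper limit of 0.183 FPKM. With that row left out, which was chosen after its values were seen, the ratio of Shmt1 was 0.99. As FPKM times row length, which gives fragments scaled to library size alone, Shmt1 had 247 in NP and 209 in Control, a ratio of 1.18. An exact 0 in such a table can be a failed split of reads between transcripts, so the 1.66 cannot be read as a higher level of the coding transcript.

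The transcripts are printed to show how little sequence the short form has of its own. In GENCODE M21 (build GRCm38), where a transcript of the same identifier and of 1295 bases is annotated as a non-coding processed transcript, the short form has 8 exons and the coding form 12. The last 1180 bases of the short form, 91.1% of its length, also occur unbroken in the coding form, so only reads that touch its own first exon can tell it apart from the coding form. That exon has 116 bases, at chr11:60799288-60799403 on the minus strand. The coding form has exon 5 before the first shared exon, at chr11:60801428-60801588. Capitals mark the whole first exon of the short form and the last 116 bases of exon 5 of the coding form and lower case the first 40 shared bases.
Shmt1 short form: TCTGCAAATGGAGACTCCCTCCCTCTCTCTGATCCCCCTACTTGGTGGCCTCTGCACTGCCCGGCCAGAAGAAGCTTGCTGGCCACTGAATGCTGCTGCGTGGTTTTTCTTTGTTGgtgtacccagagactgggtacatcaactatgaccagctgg
Shmt1 coding form: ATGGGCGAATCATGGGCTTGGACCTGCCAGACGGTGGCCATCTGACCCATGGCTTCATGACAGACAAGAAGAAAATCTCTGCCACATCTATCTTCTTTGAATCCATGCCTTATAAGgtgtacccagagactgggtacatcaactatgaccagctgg

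Shmt2, the mitochondrial counterpart that carries out the same reaction on mitochondrial folate, was at 58.0 FPKM in NP and 56.7 FPKM in Control with overlapping intervals. The ratio of Shmt1 to Shmt2 was thus 1.58 in NP and 0.97 in Control on the summed values, and the difference between these ratios rests on the short Shmt1 row.

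Rows at 0 in 1 library and at 5 FPKM or more in the other were found in 5 members, and each time the gene value depended on how rows were combined. Gnmt, glycine N-methyltransferase, which uses surplus S-adenosylmethionine to methylate glycine, was at 1620 FPKM (1548 to 1692) in NP and 1155 FPKM (1106 to 1204) in Control when rows were summed, a ratio of 1.40. Its coding transcript of 1035 nt was at 1620 FPKM in NP and 1034 FPKM (985 to 1082) in Control, a ratio of 1.57, which passes 1.5-fold. The Control value holds a further 121 FPKM in a row that spans the whole gene and can take intronic reads, a row listed at 0 in NP. As FPKM times row length the ratio of Gnmt was 1.12. Gnmt was higher in NP under each of these 3 measures, and their range of 1.12 to 1.57 is wider than the intervals within a library.

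Gldc, the decarboxylase subunit of the glycine cleavage system, was at 67.6 FPKM (63.8 to 71.4) in NP and 60.2 FPKM (56.5 to 63.8) in Control, with intervals that just missed each other. Its main transcript of 3754 nt alone was at 53.9 FPKM in NP and 60.2 FPKM in Control, and a second transcript of 3573 nt was at 13.7 FPKM in NP and listed at 0 in Control. The direction for Gldc therefore turned with the row used. Cbs, cystathionine beta-synthase, which joins homocysteine to serine, was at 161 FPKM (154 to 169) in NP and 138 FPKM (131 to 146) in Control. A Cbs transcript of 2401 nt was listed at 0 in NP and at 21.1 FPKM in Control, and without it the ratio was 1.38 in place of 1.17. For Mat1a, the liver S-adenosylmethionine synthetase, the whole-gene row was listed at 0 in NP and at 34.9 FPKM in Control.

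**Figure D2:**
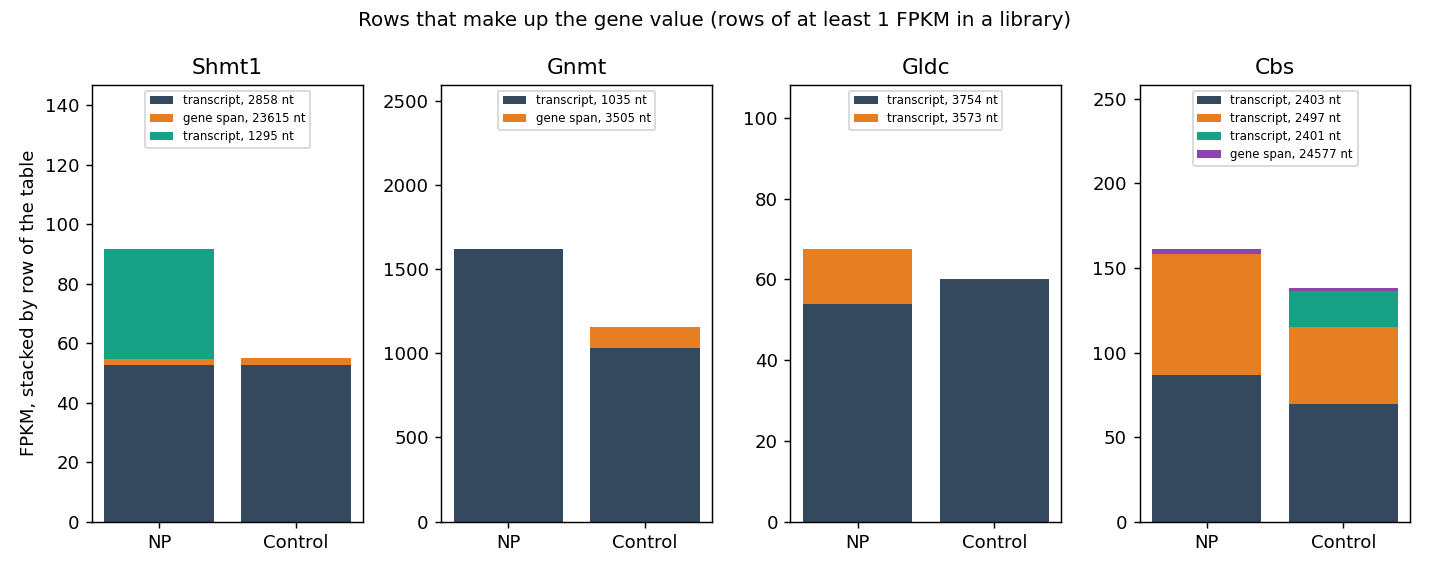
FPKM of Shmt1, Gnmt, Gldc and Cbs in NP (left bar of each panel) and Control (right bar), stacked by the rows of the table that make up the gene value and reach 1 FPKM in a library, each row named by its length. The 1295-nt Shmt1 row and the 3573-nt Gldc row appear in NP only, and the Gnmt whole-gene row and the 2401-nt Cbs row in Control only.

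Of all genes at 20 FPKM or more, 50.6% had a ratio above 1 and 13.9% had intervals apart upwards. The sulfur group had a median log2 ratio of 0.25, with 5 of 6 members above 0 and intervals apart upwards for 4. Gnmt, Mat1a and Cbs, 3 of these 4, have a row listed at 0 in 1 library. The median FPKM ratio of the group was 1.19, and 1.11 as FPKM times row length. Mat1a, whose mm9 span on chromosome 14 is 41918670 to 41937701, had a level of 1425 FPKM (1365 to 1485) in NP and 1174 FPKM (1125 to 1222) in Control, a ratio of 1.21 that was 1.06 as FPKM times row length. Cth, cystathionine gamma-lyase, which releases cysteine at the end of transsulfuration, was at 130 FPKM (122 to 138) in NP and 107 FPKM (100.4 to 114) in Control. Its ratio was 1.21, and 1.12 as FPKM times row length. Bhmt, which remethylates homocysteine with betaine, was at 229 FPKM (217 to 240) in NP and 212 FPKM (201 to 222) in Control with overlapping intervals. Ahcy, which hydrolyses the S-adenosylhomocysteine that methyltransferases leave behind, ran the other way at 106 FPKM (99.8 to 112) in NP and 148 FPKM (140 to 156) in Control, a ratio of 0.71. On summed rows Gnmt, a step before Ahcy, was thus higher in NP and Ahcy itself lower. Both differences were smaller under other measures, with ratios of 1.12 for Gnmt as FPKM times row length and 0.84 for Ahcy summed with near-identical gene copies.

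The Ahcy and Bhmt values have to be read with their copies. A search of the main transcript of 49 members against all GENCODE M21 transcripts, at 95% identity over at least 200 bases, found another gene with such a match for 10 of them. Ahcy (mm9 chromosome 2, 154885046 to 154900233) matched the single-exon gene Gm4737 (mm9 chromosome 16, 46153110 to 46155190) at 99.7% over 2083 bases and the pseudogene Gm9826 at 99.2% over 1299 bases. Gm4737 was at 723 FPKM (711 to 735) in NP and 814 FPKM (801 to 828) in Control, far above Ahcy itself, and Gm9826 at 68.2 FPKM in NP and 104.4 FPKM in Control. How reads were shared among such copies is not given in the sources used here, so the sum is the safer value, 897 FPKM (883 to 911) in NP and 1067 FPKM (1050 to 1084) in Control. Its ratio of 0.84 kept the direction of Ahcy at a smaller size, with intervals apart. Ahcy on its own made up 11.8% of that sum in NP and 13.9% in Control.

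Bhmt matched the single-exon gene Gm5096 at 99.4% over 1869 bases and the pseudogene Bhmt-ps1 at 98.9% over 1224 bases. Gm5096 was at 414 FPKM (402 to 426) in NP and 306 FPKM (295 to 317) in Control, and Bhmt-ps1 at 87.8 FPKM in NP and 80.9 FPKM in Control. Summed, Bhmt and its copies were at 730 FPKM (713 to 747) in NP and 598 FPKM (582 to 614) in Control, a ratio of 1.22 with intervals apart, where Bhmt alone gave 1.08. Got2, the mitochondrial aspartate transaminase, matched Got2-ps1 and Gm10874, and the sum of the 3 was at 224 FPKM in NP and 225 FPKM in Control, with the same ratio near 1 as for Got2 alone. These sums were chosen after the values were seen.

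Gnmt and Ahcy act on neighbouring metabolites and had ratios on opposite sides of 1, so the 250 bases before their start sites are shown, as RefSeq gives them in GRCm38.p6. They are at chr17:46729166-46729415 for Gnmt and chr2:155074498-155074747 for Ahcy, both on the minus strand, and written 5′ to 3′. Capitals mark the CCAAT box on either strand, the only one of 7 searched motifs found in either window, 62 bases before the start in Gnmt and 237 bases before it in Ahcy, counted from the first base of the match.
Gnmt upstream: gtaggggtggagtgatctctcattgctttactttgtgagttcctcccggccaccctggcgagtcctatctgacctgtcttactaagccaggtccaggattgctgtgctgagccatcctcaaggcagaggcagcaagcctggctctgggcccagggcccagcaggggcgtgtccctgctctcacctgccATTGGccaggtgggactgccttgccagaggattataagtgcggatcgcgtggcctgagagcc
Ahcy upstream: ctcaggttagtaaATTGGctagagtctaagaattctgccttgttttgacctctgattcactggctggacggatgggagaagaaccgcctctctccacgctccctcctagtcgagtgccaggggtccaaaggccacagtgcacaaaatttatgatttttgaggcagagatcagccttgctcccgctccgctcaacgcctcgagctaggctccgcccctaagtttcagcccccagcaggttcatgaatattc

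The motifs were searched on both strands, namely the CCAAT box as those 5 letters, the TATA box as TATAAA, the cAMP response element as TGACGTCA, the E-box as CACGTG and a C/EBP-ATF element as TGATGNAA, with the HNF4 direct repeat and the palindromic glucocorticoid response element. RefSeq windows lay within 100 bases of the start of the main transcript for 34 members. CCAAT was in 20 of these 34 (58.8%) and in 33.8% of all 32851 windows in the table, which can hold several for a gene. TATAAA was in 4 of 34 (11.8%) beside 12.4% of all windows, CACGTG in 2 (5.88%) beside 6.02%, and TGATGNAA in 1 (2.94%), Got1, beside 3.45%. TGACGTCA was in 0 of 34 beside 1.55%, the HNF4 repeat in 0 beside 0.0335% and the glucocorticoid element in 0 beside 0.00913%. These counts describe letters in a short window and say nothing of the factors.

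The 4 histidine enzymes had FPKM ratios from 1.12 to 1.16. Hal, which removes ammonia from histidine in the first step, was at 58.1 FPKM (54.5 to 61.8) in NP and 51.2 FPKM (47.7 to 54.7) in Control, with intervals that overlapped slightly. Uroc1, the urocanase of the second step, was at 89.6 FPKM (84.8 to 94.4) in NP and 80.3 FPKM (75.7 to 84.8) in Control. Amdhd1, the third enzyme, was at 86.3 FPKM (81.2 to 91.5) in NP and 74.2 FPKM (69.5 to 79.0) in Control. Ftcd, which hands the formimino carbon to tetrahydrofolate, was at 193 FPKM (185 to 202) in NP and 170 FPKM (162 to 179) in Control. All 4 were higher in NP on summed rows, and for Amdhd1 and Ftcd the intervals were apart. For Uroc1 they just missed each other, with a lower limit of 84.85 FPKM in NP and an upper limit of 84.84 FPKM in Control. Of all genes at 20 FPKM or more, 50.6% had a ratio above 1 and 13.9% had intervals apart upwards. Hal and Amdhd1 are neighbours on chromosome 10, with 4033 bases between their spans in mm9. As FPKM times row length, the ratio of Hal was 0.98 while those of the other 3 were 1.09 to 1.14, so the direction for Hal depended on the measure. Within Hal the 2360-nt transcript was at 31.7 FPKM in NP and 23.8 FPKM in Control, and the 5319-nt transcript at 25.4 FPKM in NP and 25.8 FPKM in Control. The row for the whole gene, of 30537 nt, was at 1.01 FPKM in NP and 1.69 FPKM in Control, and weighs heavily when multiplied by length. With that row left out, the summed ratio of Hal was 1.15. Outside the members, 3 listed genes of histidine metabolism passed the filter, 1 with a ratio above 1 and 2 below. Their median log2 ratio was -0.22, and all 3 had overlapping intervals.

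In the aromatic group 9 of 11 members had a ratio below 1, with a median log2 ratio of -0.09. Among all genes, 5730 of 10544 had a ratio below 1, as had 1401 of the 2835 at 20 FPKM or more. Tat, tyrosine aminotransferase, the first step of tyrosine breakdown, was the exception with intervals apart, at 665 FPKM (637 to 693) in NP and 539 FPKM (516 to 562) in Control, a ratio of 1.23. Tat lies on chromosome 8 from 112514337 to 112523703. Hpd, the dioxygenase of the next step, was at 1330 FPKM (1273 to 1388) in NP and 1466 FPKM (1403 to 1530) in Control. The ratio of Tat to Hpd was 0.50 in NP and 0.37 in Control. The remaining tyrosine enzymes Hgd, Gstz1 and Fah, which open and cleave the ring product to fumarate and acetoacetate, had FPKM ratios of 0.94, 0.99 and 0.97 with overlapping intervals. Outside the members, 13 listed genes of aromatic amino acid metabolism passed the filter. Of these, 9 had a ratio above 1 and 4 below, with a median log2 ratio of 0.08. The lower ratios therefore describe the listed members and not all genes of these pathways.

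In the tryptophan branch 5 of 6 members had a ratio below 1, beside 5730 of all 10544 genes and 1401 of the 2835 at 20 FPKM or more. Intervals were apart downwards for 2 of the 6, Tdo2 and Kmo. The sum of the branch was 1149 FPKM in NP and 1294 FPKM in Control, and most of it was Tdo2. Tdo2, tryptophan dioxygenase, the entry enzyme, was at 824 FPKM (796 to 852) in NP and 957 FPKM (924 to 989) in Control, a ratio of 0.86. Kmo, kynurenine monooxygenase, was at 36.9 FPKM (34.1 to 39.7) in NP and 46.7 FPKM (43.3 to 50.1) in Control, a ratio of 0.79. Afmid, the formamidase between these steps, was at 43.4 and 50.0 FPKM in NP and Control, with overlapping intervals. Kynu, kynureninase, was the member above 1, at 65.1 FPKM (60.4 to 69.7) in NP and 57.1 FPKM (52.5 to 61.7) in Control. The ratio of Kynu to Kmo, which act on kynurenine side by side, was 1.76 in NP and 1.22 in Control. Haao, which opens the ring of hydroxyanthranilate, was at 178 FPKM in NP and 181 FPKM in Control, and Acmsd, which diverts its product from NAD synthesis, at 1.43 FPKM in NP and 1.73 FPKM in Control.

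In the branched-chain group 0 of 9 measured members had separate intervals, and FPKM ratios ran from 0.81 to 1.15. Of all genes, 7.72% had intervals apart upwards and 9.58% downwards, and of those at 20 FPKM or more 13.9% and 13.1%. The subunits of the branched-chain keto acid dehydrogenase were close to 1 or a little above it. Bckdha was at 117 FPKM in NP and 116 FPKM in Control, Bckdhb at 72.5 FPKM (67.1 to 78.0) in NP and 63.2 FPKM (58.0 to 68.4) in Control, and Dbt at 21.7 FPKM in NP and 22.3 FPKM in Control. Mccc1 and Mccc2, the subunits of methylcrotonyl-CoA carboxylase in leucine breakdown, had ratios of 1.09 and 1.10 and kept a ratio to each other of 0.59 in NP and 0.60 in Control, although as FPKM times row length their ratios were 0.90 and 0.94. Auh, the hydratase that follows them, was at 19.3 FPKM (16.7 to 21.9) in NP and 23.9 FPKM (20.8 to 27.0) in Control. Ivd of the leucine branch and Hibch and Hibadh of the valine branch had ratios of 0.92, 0.86 and 0.91, all with overlapping intervals.

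Among the serine and glycine enzymes, Gcsh, the lipoyl carrier protein of the glycine cleavage system, was lower in NP, at 41.2 FPKM (37.3 to 45.0) against 52.3 FPKM (47.6 to 57.0) in Control, a ratio of 0.79. Amt, the aminomethyltransferase of the same system, was at 26.3 FPKM in NP and 26.2 FPKM in Control. Sds, serine dehydratase, which yields pyruvate from serine, was at 102 FPKM (94.8 to 109) in NP and 114 FPKM (106.03 to 121) in Control, and its neighbour and paralogue Sdsl at 10.9 FPKM (8.70 to 13.1) in NP and 8.35 FPKM (6.29 to 10.4) in Control, both with overlapping intervals. Dmgdh and Sardh, which oxidise dimethylglycine and sarcosine in mitochondria, had ratios of 0.98 and 1.02. Psph, the last enzyme of serine synthesis, was at 3.24 FPKM in NP and 3.12 FPKM in Control, and shares 452 identical bases with the neighbouring gene Cct6a in the M21 transcripts.

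The transaminases of this reaction group were level or higher in NP. Gpt2, the mitochondrial alanine transaminase (mm9 chromosome 8, 88016475 to 88051459), had a level of 102 FPKM (96.4 to 107) in NP and 80.0 FPKM (75.5 to 84.5) in Control, a ratio of 1.27. The cytosolic Gpt was at 114 FPKM in NP and 113 FPKM in Control. Agxt, which removes glyoxylate with alanine, was at 166 FPKM (157 to 175) in NP and 144 FPKM (135 to 153) in Control. Got1, the cytosolic aspartate transaminase, was at 38.7 FPKM (35.5 to 41.9) in NP and 32.6 FPKM (29.6 to 35.6) in Control, with intervals that touched. Taking all 16 members that use pyridoxal phosphate, 14 passed the filter, 12 of these had a ratio above 1 and 7 had intervals apart upwards, 0 downwards, with a median log2 ratio of 0.21. Of the 7, Shmt1, Gldc and Cbs have a row listed at 0 in 1 library, and with such rows left out 10 of the 14 had a ratio above 1, Shmt1 (0.99) and Gldc (0.90) no longer among them. The 34 measured members without that cofactor had 6 apart upwards and 6 downwards and a median of -0.02. Of all genes at 20 FPKM or more, 50.6% had a ratio above 1, 13.9% were apart upwards and 13.1% downwards. Outside the members, the pyridoxal phosphate enzymes Aadat, Csad, Abat, Srr and Agxt2l1 had intervals apart downwards. Aadat was at 52.3 FPKM in NP and 67.9 FPKM in Control, and Csad at 327 FPKM in NP and 376 FPKM in Control. Ccbl1, Ddc and Agxt2 had ratios above 1 with overlapping intervals. The counts therefore describe the listed members and not all enzymes with this cofactor. The cofactor groups were listed with earlier results of these data known, and the difference between them was not tested.

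Proline and lysine enzymes were split. Prodh, proline dehydrogenase, the first step of proline breakdown, was at 39.1 FPKM (35.8 to 42.3) in NP and 55.0 FPKM (50.8 to 59.1) in Control, a ratio of 0.71. Its span on chromosome 16 from 18060450 to 18090296 overlaps Dgcr6, which was at 20.2 FPKM in NP and listed at 0 in Control. Summed as FPKM times row length, Prodh and Dgcr6 had 150.4 in NP and 180.3 in Control, a ratio of 0.83, so part of the Prodh difference sat beside an opposite one in the overlapping gene. Aldh4a1, the dehydrogenase that completes proline breakdown, was at 64.5 FPKM (60.7 to 68.4) in NP and 54.7 FPKM (51.2 to 58.2) in Control. Its ratio was 1.18, and 1.06 as FPKM times row length. Aass, which starts lysine degradation, was at 62.2 FPKM in NP and 60.7 FPKM in Control.

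By compartment, the 26 measured cytosolic members had a median log2 ratio of 0.13 with 9 apart upwards and 3 downwards, and the 21 mitochondrial members a median of 0.01 with 3 apart each way, beside 13.9% upwards and 13.1% downwards of all genes at 20 FPKM or more. The cytosolic count includes Shmt1 and the mitochondrial one Gldc, whose directions turned without the rows listed at 0 in 1 library. With such rows left out, 14 of 26 cytosolic and 10 of 21 mitochondrial members had a ratio above 1, in place of 16 and 11. Agxt was counted in neither, as it is listed as peroxisomal.

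**Figure D3:**
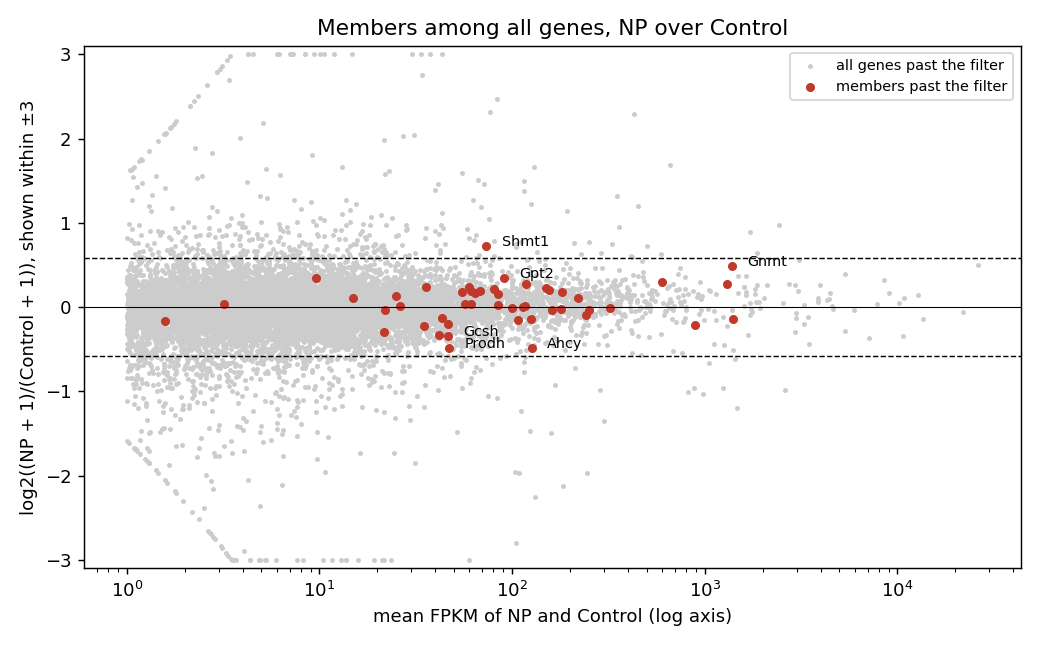
Log2 ratio of NP over Control against mean FPKM on a log axis, for all 10544 genes past the filter (grey, shown within ±3) and the 48 members (red), with dashed lines at 1.5-fold. Of the members, Shmt1 alone lies beyond a dashed line, at 0.72, while Ahcy and Prodh lie lowest at -0.48.

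Members with several rows differed in how far their ratio moved with the way rows were combined. For Gpt2 the ratio was 1.27 with all rows, 1.27 without whole-gene rows and 1.24 as FPKM times row length. For Mccc1 it was 1.09 with all rows, 1.27 with rows above 0 in both libraries and 0.90 as FPKM times row length. For 11 members, Gcsh and Kmo among them, the ratio could not move, since it rests on 1 row. The Kmo span overlaps Fh1, at 64.6 FPKM in NP and 69.9 FPKM in Control, and the ratio of Kmo and Fh1 summed as FPKM times row length was 0.87, against 0.79 for Kmo alone.

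**Figure D4:**
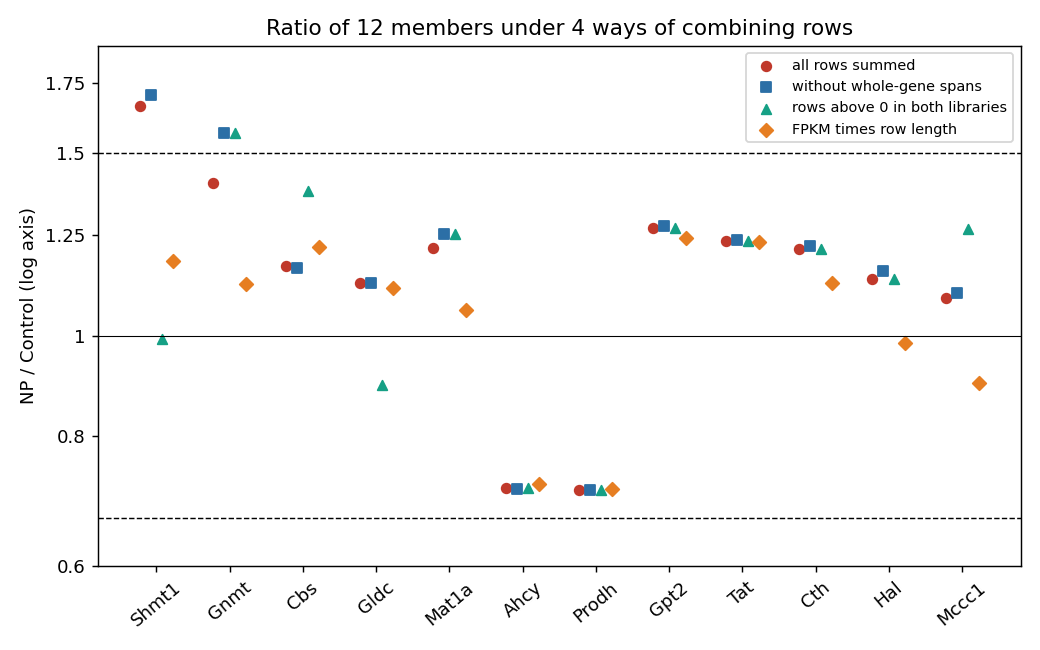
NP over Control ratio (log axis) of 12 members under 4 ways of combining the rows of a gene, with dashed lines at 1.5-fold either way. The 4 marks of Shmt1 run from 0.99 to 1.70 and those of Gnmt from 1.12 to 1.57, those of Mccc1 from 0.90 to 1.27, while those of Ahcy, Prodh, Gpt2 and Tat nearly coincide.

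Other genes of the same pathways, 112 in all from lists that leave out the members, were counted in the same way. Of the 95 that passed the filter, 2 passed 1.5-fold upwards and 1 downwards, 9 had intervals apart upwards and 12 downwards, with a median log2 ratio of -0.03. Over all genes the shares were 3.59% and 5.33% past 1.5-fold and 7.72% and 9.58% with intervals apart, upwards and downwards in each case. The ratio was above 1 for 46 of the 95 and below 1 for 49. The gene that was lower was Bckdk, the kinase that switches off branched-chain keto acid dehydrogenase, at 6.22 FPKM (4.54 to 7.89) in NP and 12.8 FPKM (9.23 to 16.5) in Control. Ppm1k, the phosphatase that opposes it, was at 15.1 FPKM (14.0 to 16.3) in NP and 20.9 FPKM (19.4 to 22.4) in Control, so both regulators of the complex were lower in NP while its subunits were within 1.15-fold. The single rows behind a gene value were examined for members only, so how far the Bckdk and Ppm1k ratios depend on them was not tested. The genes that were higher belong to the methionine salvage pathway. Mri1 was at 3.65 FPKM (2.93 to 4.37) in NP and 2.01 FPKM (1.45 to 2.57) in Control, and Enoph1 at 2.36 FPKM (1.56 to 3.18) in NP and 1.13 FPKM (0.587 to 1.67) in Control, with overlapping intervals for Enoph1. On the FPKM values themselves, Mmab of cobalamin metabolism (6.08 FPKM in NP, 3.90 FPKM in Control), the folate receptor Folr2 (1.67 FPKM in NP, 0.974 FPKM in Control) and the thymidylate synthase Tyms (3.12 FPKM in NP, 4.80 FPKM in Control) also passed 1.5-fold, the last 2 with overlapping intervals.

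The series title speaks of endoplasmic reticulum stress, whose transcription factor ATF4 is known to switch on genes of amino acid metabolism and transport. Of 14 genes found from a list of ATF4 targets, 6 passed the filter, 4 of them members. On summed rows all 6 had a ratio above 1, from a log2 ratio of 0.03 to 0.34. Of all genes past the filter, 45.7% had a ratio above 1. For Psph the direction turned with the row, since its main transcript was at 2.36 FPKM in NP and 3.07 FPKM in Control. Of these 6, Cth and Gpt2 had intervals apart, while Psph, Shmt2, Aldh18a1 and Slc3a2 overlapped. Intervals were apart upwards for 7.72% of all genes and for 13.9% of those at 20 FPKM or more. Of the 8 below the filter 5 were lower in NP, namely Asns, Phgdh, Pycr1, Aldh1l2 and Slc7a11, while Psat1, Chac1 and Mthfd2 were higher. Several of these values lay near 0, such as Slc7a11 at 0.0125 FPKM in NP and 0.0128 FPKM in Control. Asns, a well-known ATF4 target, was at 0.499 FPKM in NP and 1.01 FPKM in Control with overlapping intervals, and Aldh1l2 at 0.00195 FPKM in NP and 0.137 FPKM in Control with separate ones. Atf4 itself was at 76.4 FPKM in NP and 58.4 FPKM in Control.

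Of 18 regulators listed for these pathways, all 18 passed the filter, 0 were 1.5-fold apart on the log2(FPKM + 1) scale, 7 had intervals apart upwards and 5 downwards, where all genes gave 7.72% and 9.58%, and genes at 20 FPKM or more 13.9% and 13.1%. The 7 were Cebpb, Foxa2 (ratio 1.49), Atf4 (1.31), Hnf4a (1.24), Nr0b2 (1.197), Klf15 (1.16) and Gcgr (1.11), and the 5 were Hes6 (0.72), Nr1h4 (0.74), Prox1 (0.75), Cebpa (0.77) and Nr3c1 (0.82). Cebpb, a C/EBP factor of the acute response, was at 77.7 FPKM (72.1 to 83.4) in NP and 51.5 FPKM (47.0 to 56.1) in Control, 1.51 times as much on the FPKM values themselves, and its span overlaps Tmem189. Cebpa was at 118 FPKM (114 to 122) in NP and 153 FPKM (148 to 158) in Control, and Nr3c1, the glucocorticoid receptor that induces Tat and Tdo2, at 10.9 FPKM (9.85 to 11.9) in NP and 13.2 FPKM (12.04 to 14.3) in Control.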

How the data were processed

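RNA-seq libraries of liver from the NP and Control groups were compared, 1 library each. The deposited tables list FPKM with 95% intervals for each transcript, in a Cufflinks tracking layout per the file headers. They also list coverage, a depth signal that was left unscaled in the deposited tables. Per the submitters' processing notes, TopHat2 2.1.0, Cufflinks 2.2.1.0 and mm9 were used, with no roles or settings stated, and strandedness is not given in the sources used here. Of 119289 rows, 87656 are transcripts, 24787 span a whole gene and 6846 are the only row of a gene. Gene levels are sums of FPKM over the rows with the same gene identifier, and interval half-widths of rows above 0 were combined in quadrature, which leaves out covariance between rows. Genes needed a mean of at least 1 FPKM, an OK status, a row of at least 300 nt and no small RNA name. A pseudocount of 1 FPKM was used, which understates differences of low genes, and single-gene ratios are those of FPKM itself. The size rule of 1.5-fold was run on simulated data with a spread set in advance, which carry no information on variation among animals. Values were named for members past 1.5-fold or with separate intervals, for first or rate-limiting enzymes and for the extremes of a group, and other pathway genes past 1.5-fold. Further genes named were chosen after their values were seen. Members and lists were chosen with earlier results of these data known. GENCODE M21 and RefSeq (GRCm38) were used for sequences, copies and transcript types only, and all other coordinates are those of the files, counted from 1. Protein sequences were not used here. Tables were handled with pandas 2.3.3 under Python 3.11.15 and plotted with matplotlib 3.10.9.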

Additional observations from a re-analysis of the deposited data

How the results depend on the processing

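No paired analysis was possible because each group has 1 library. Over 14 alternatives the median log2 ratio of the members stayed between 0.00 and 0.06 and 0 members were 1.5-fold lower. The count of members 1.5-fold higher was 2 without whole-gene rows, where Gnmt joined Shmt1, and 0 under a 2-fold rule, without overlapping genes (which drops Shmt1) or as FPKM times row length. It was 1 with the highest row only and without rows above 0 in 1 library, but that gene was then Gnmt. Over all genes, 218 were higher and 247 lower at a mean of at least 5 FPKM, and 120 and 199 under the 2-fold rule. Of 619 values of single members, 14 moved beyond the interval of the ratio and 3 changed sign among members with separate intervals, in 10 members in all. Counting every member, 11 had log2 ratios on both sides of 0 over the alternatives (Amt, Gldc, Got2, Gpt, Gstz1, Haao, Hal, Mccc1, Mccc2, Psph and Shmt1). The 3 sign changes were Gldc at -0.16 both with the highest row only and without rows above 0 in 1 library, and Shmt1 at -0.011 without such rows. Measures based on row length, rows above 0 in both libraries and sums with copies were added after the data were examined. Low members such as Acmsd, Psph and Sdsl have wide intervals, and depth limits what their ratios show.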
